A study of Mus musculus with 6 samples.

Results

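The mitochondrial ribosomal protein genes were followed in mouse hepatocytes before and after partial hepatectomy (PHx), an operation that takes away most of the organ. The 78 genes are all protein-coding genes of GENCODE release M21 whose names begin with Mrpl or Mrps followed by a digit, out of 21951 protein-coding genes and 55450 annotated genes in the count files. Of these, 49 are named Mrpl and 29 Mrps, and they lie on 17 chromosomes. The samples were bulk RNA-Seq libraries of hepatocytes, 3 from the time point 0hr (undamaged liver) and 3 from the time point 48hr (48 h after PHx). All animals were adult C57BL/6 mice on a normal diet, with an age of 10 to 12 weeks at surgery according to the labels, and the labels name no genetic change in either group. The study's methods name the strain as C57BL/6J, the sex as male and a slightly younger age at surgery. Hepatocytes were freed from the liver by collagenase perfusion. The study describes the 3 libraries of a time point as biological replicates. The 0 h livers are described as undamaged and no sham operation is named, so effects of surgery and of tissue loss cannot be told apart.

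The mitochondrial ribosome sits in the mitochondrial matrix and translates the few proteins encoded by mitochondrial DNA, all of them core subunits of the respiratory chain and of ATP synthase. Its ribosomal RNAs come from mitochondrial DNA, while all of its proteins come from nuclear genes, are made in the cytosol and are then imported. Some of these proteins descend from the bacterial ancestor of mitochondria and others joined the particle later in evolution. Hepatocytes are rich in mitochondria, which support urea synthesis, fatty acid oxidation and gluconeogenesis.

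The promoters of these genes are shown for 3 members, which are the called members (2 that rose and 1 that fell) for which the 250 bases before the RefSeq start held the ETS core motif, no exon of another gene and at most 30 bases of an annotated exon of the gene itself. ETS factors include GABPA, long known as an activator of nuclear genes for mitochondrial proteins. Sequences are from RefSeq, build GRCm38.p6, written 5′ to 3′ along the gene, and the capitals mark the motif CCGGAAG or its reverse complement CTTCCGG.
Mrpl52, chr14:54426659-54426908, plus strand: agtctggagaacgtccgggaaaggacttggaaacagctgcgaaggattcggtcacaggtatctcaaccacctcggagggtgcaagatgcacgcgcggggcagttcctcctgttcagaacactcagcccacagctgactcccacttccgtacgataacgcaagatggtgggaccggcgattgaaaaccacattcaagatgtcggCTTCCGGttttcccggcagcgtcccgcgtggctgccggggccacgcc
Mrps22, chr9:98601680-98601929, minus strand: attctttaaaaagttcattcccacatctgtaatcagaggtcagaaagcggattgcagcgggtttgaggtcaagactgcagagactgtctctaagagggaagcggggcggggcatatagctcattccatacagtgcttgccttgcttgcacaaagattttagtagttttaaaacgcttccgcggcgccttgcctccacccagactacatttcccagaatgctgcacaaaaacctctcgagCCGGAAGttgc
Mrpl3, chr9:105053018-105053267, plus strand: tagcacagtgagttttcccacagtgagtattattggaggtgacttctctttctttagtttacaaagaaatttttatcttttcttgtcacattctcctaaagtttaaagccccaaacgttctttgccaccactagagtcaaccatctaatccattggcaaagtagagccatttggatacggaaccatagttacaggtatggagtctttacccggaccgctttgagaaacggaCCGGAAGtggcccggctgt

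The motif began 11 bases before the RefSeq start in Mrps22, 19 bases before it in Mrpl3 and 47 bases before it in Mrpl52. Promoter windows from 250 bases before to 50 bases after the start were found for 69 of the 78 members, 75 windows in all, and were searched on both strands. The ETS core CCGGAAG was in 34.7% of the members' windows and in 8.86% of all 32851 windows of that length. The core of the YY1 motif, AAGATGG, was in 17.3% of the members' windows and in 6.34% of all windows. The letters GCGCATG, from the NRF1 motif, were in 10.7% against 3.91%, and the E-box CACGTG, which MYC and other factors can bind, in 9.33% against 7.15%. The ETS and YY1 letters can share the bases AAG where the motifs run into each other, and a match describes the letters only. All windows served as the background, with no matching for base content or expression. Of the 25 tested members with the ETS core, 4 were called higher and 1 lower at 48 h by edgeR's test (21.4% and 19.3% of all genes tested were). Their median log2 fold change was 0.19, the same as that of all members tested. The 1 lower was Mrpl3, whose call was lost in each fit that left out a library. Of the 13 with the YY1 letters, 3 were called higher and 0 lower (median 0.20). Of the 8 with the NRF1 letters, 0 were called in either direction (median 0.02), and of the 5 tested with the E-box 1 was higher and 0 lower (median 0.16). These groups are small, and no test was made between them.

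Total gene counts were 31419443 to 36346220 per library, so that 3 counts correspond to 0.0825 to 0.0955 CPM, a gene's count scaled to the library total. These floors cover counting error only. The hepatocyte marker list (8 genes, such as Alb and Ttr) summed to 102550 to 121580 CPM at 0 h and 63950 to 73159 CPM at 48 h, with 4 of its genes lower and 0 higher. The endothelial list (10 genes) summed to 232 to 360.1 CPM at 0 h and 168 to 185 CPM at 48 h, with 9 genes lower. The Kupffer cell list (10 genes) summed to 81.4 to 122 CPM and 117 to 144 CPM, with 3 genes higher, and the stellate cell list (10 genes) to 76.0 to 123 CPM and 69.0 to 82.1 CPM, with 1 gene higher and 1 lower. The cholangiocyte list (6 genes) summed to 9.15 to 20.7 CPM and 16.3 to 26.0 CPM with 1 gene higher, the lymphocyte list (8 genes) to 2.69 to 3.87 CPM and 2.61 to 3.86 CPM with 0 genes called, and the neutrophil list (8 genes) to at most 1.06 CPM, with 3 genes at 0 in all libraries. The part of these shifts in the members' values was not tested. In bulk RNA, fewer cells of a type and less RNA per cell cannot be told apart.

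One undamaged library stood apart for the mitochondrial ribosomal protein genes. Replicate 2 of 0 h was the lowest of the 6 libraries for 60 of the 77 members tested (77.9%), whereas it was the lowest for 23.4% of all genes tested. The members' CPM, normalized by the TMM method, summed to 1219, 924 and 1234 at 0 h and to 1267, 1347 and 1173 at 48 h. Against the other two undamaged libraries, 1 of the 48 h sums was lower and the other two were higher. The log2 ratio of the mean sums was 0.17 with all libraries and 0.04 without 0 h replicate 2. In log2 terms its members lay at a median of -0.34 from their own means, while the 5 other libraries lay between -0.02 and 0.14. Replicate 2 of 0 h also had the lowest sum for cytosolic ribosomal proteins (3217 CPM, against 4638 to 6820 CPM in the others), the highest share of reads on no gene (32.7%, against 24.3% to 29.3%), the highest hepatocyte, endothelial, stellate and lymphocyte marker sums and the lowest cholangiocyte sum. Called genes that are named below are given without this library where their call is lost or their value moves by more than 1.5 times, and uncalled ones with the range over the 6 fits that each left out 1 library where it is wide.

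**Figure D1:**
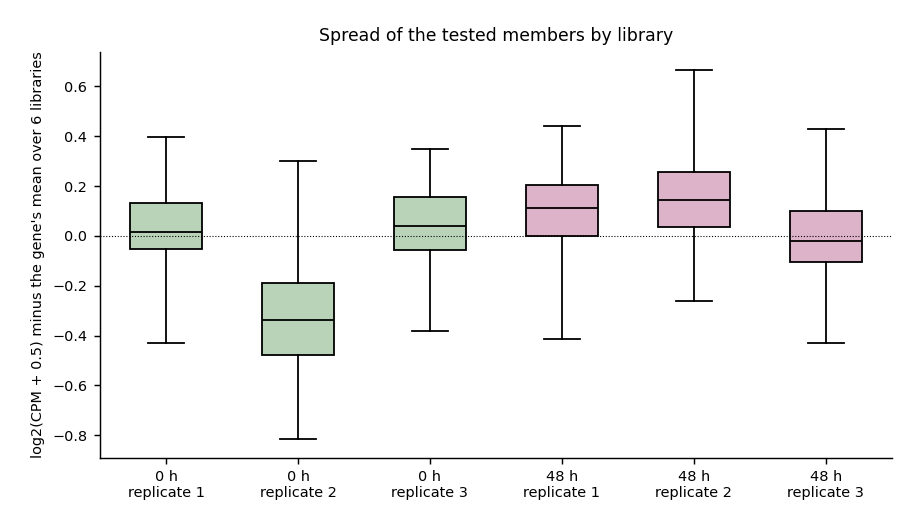
Each box holds the 77 tested members in 1 library, as log2(CPM + 0.5) minus the gene's own mean over the 6 libraries (line: median; box: quartiles; whiskers: lowest and highest member). The box of 0 h replicate 2 has its median at -0.34, while the medians of the other 5 libraries lie between -0.02 and 0.14.

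At 48 h after PHx, 12 of the 77 members tested had risen and 2 had fallen, by edgeR's quasi-likelihood test over 17037 genes and a Benjamini-Hochberg adjusted p under 0.05. The share that rose, 15.6%, was below the 21.4% of all genes tested that were called higher, and the share that fell, 2.60%, was far below the 19.3% called lower. The other 63 members did not pass the test, whereas 40.7% of all genes were called in one direction or the other. The members' changes were small: they ran from -0.42 to 0.81 on the log2 scale, with a median of 0.19 and quartiles of -0.04 and 0.35, while all genes tested had a median of 0.00 and quartiles of -0.43 and 0.42. The fitted change was above 0 in 53 members and below 0 in 24, and 33 members lay within 0.2 of 0. For all 63 uncalled members an approximate 95% interval of the log2 fold change, from the SE and the normal distribution, stayed within 1 of 0. Such intervals are narrower than edgeR's test implies. That of Mrps11, 0.036 to 0.667, left out 0 although its unadjusted p was 0.053 (edgeR). Mrps36 came closest to 1, with an upper limit of 0.955, and a wider interval could pass 1 there. All 3 libraries of 48 h lay above all 3 of 0 h in 26 members (33.8%; 27.8% of all genes tested) and below them in 4 (5.19%; 25.0% of all genes tested).

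Without 0 h replicate 2, 9 members were higher and 5 lower (20.4% and 19.0% of all genes in that fit), and the median was 0.06, against 0.01 for all genes. Of the 12 members called higher with all 6 libraries, 9 were again called. Without 48 h replicate 2, which had the highest summed level, 5 members were higher and 1 lower (16.1% and 15.4% of all genes). Scaling by library size only, without TMM factors, shifted the median of all genes by 0.20 and called 34 members higher and 0 lower (31.2% and 12.4% of all genes). The median of the members lay 0.19 above that of all genes with TMM factors and with library size only alike. Scaling moves all genes of a library together, so this agreement was bound to arise. Without 0 h replicate 2 the members' median lay 0.044 above that of all genes.

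**Figure D2:**
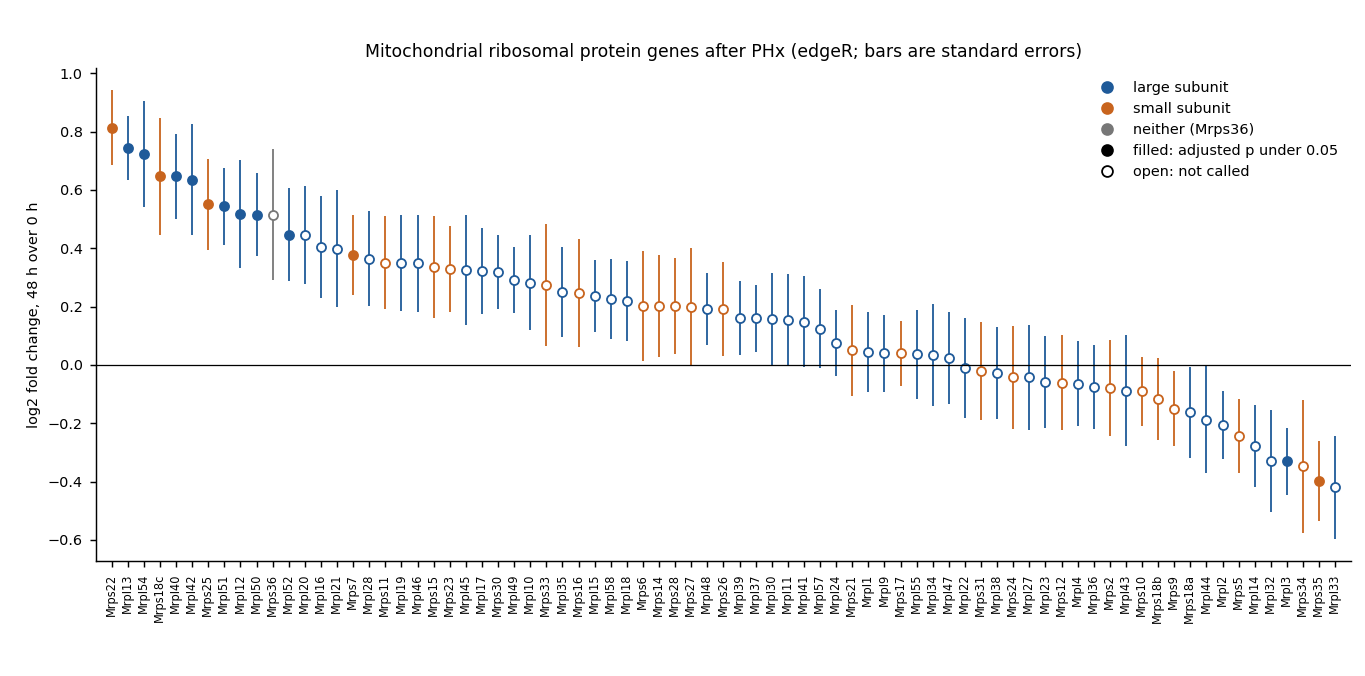
Log2 fold change of each of the 77 tested members, 48 h over 0 h, with standard errors from edgeR, ordered by size and coloured by ribosomal subunit. Filled points passed an adjusted p of 0.05; 12 lie above 0 and 2 below it, and most of the open points lie between -0.4 and 0.4.

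Among the proteins of the small subunit, which holds the messenger RNA, 4 genes rose. Mrps22 (mS22; ENSMUSG00000032459.9, chromosome 9, 98588730 to 98601660, GRCm38), a protein specific to mitochondria whose human counterpart is mutated in a respiratory chain disorder, was at 8.75, 8.41 and 9.79 CPM at 0 h and 15.4, 17.4 and 14.6 CPM at 48 h. The time points did not overlap, and the lowest 48 h library was well above the highest undamaged one. Its log2 fold change was 0.81 (standard error [SE] 0.13, adjusted p = 0.000639, edgeR), the largest of any member, and was 0.76 without 0 h replicate 2. Mrps18c (bS18m; ENSMUSG00000016833.14, chromosome 5, 100798627 to 100804471), one of 3 mammalian relatives of bacterial S18, was at 1.84, 2.13 and 2.38 CPM at 0 h and 2.999, 3.22 and 3.74 CPM at 48 h. All of its 48 h libraries lay above those of 0 h, on counts of only 54 to 131 per library. Its log2 fold change was 0.65 (SE 0.20, adjusted p = 0.0257, edgeR), and a gene annotated on the same strand, Gm43511, covers 23.2% of its exon bases.

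Mrps25 (mS25; ENSMUSG00000014551.8, chromosome 6, 92169525 to 92184033), another protein specific to mitochondria, was at 5.04, 4.45 and 5.72 CPM at 0 h and 7.84, 7.61 and 6.85 CPM at 48 h. The groups did not overlap, with a log2 fold change of 0.55 (SE 0.16, adjusted p = 0.017, edgeR). Its value is less certain than the others, because exons of Nr2c2 on the other strand overlap 69.8% of its exon bases and the strand setting of the counting was not stated. Mrps7 (uS7m; chromosome 11, 115603925 to 115608036), the relative of bacterial S7, which organizes the head of the small subunit, was at 29.9, 21.8 and 31.5 CPM at 0 h and 35.1, 35.5 and 37.5 CPM at 48 h. It passed the threshold narrowly (log2 fold change 0.38, SE 0.14, adjusted p = 0.0499, edgeR) and was no longer called without 0 h replicate 2, its lowest library (log2 fold change 0.22, adjusted p = 0.081, edgeR).

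Among the proteins of the large subunit, which joins the amino acids, 8 genes rose. Mrpl13 (uL13m; ENSMUSG00000022370.13, chromosome 15, 55534094 to 55557748), the relative of bacterial L13, had the tightest undamaged values of the called members, 13.4, 13.7 and 13.3 CPM, and reached 22.7, 24.1 and 20.8 CPM at 48 h. Here 0 h replicate 2 was the highest of its group, not the lowest. The log2 fold change was 0.74 (SE 0.11, adjusted p = 0.000408, edgeR) and was 0.75 without that library. Mrpl54 (mL54; ENSMUSG00000034932.4, chromosome 10, 81264713 to 81266934) was at 11.4, 6.83 and 11.1 CPM at 0 h and 17.01, 16.3 and 15.1 CPM at 48 h. Its groups did not overlap, but 1 undamaged library was far below the other two. The log2 fold change was 0.72 (SE 0.18, adjusted p = 0.00973, edgeR), and without 0 h replicate 2 it was 0.51.

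Mrpl40 (mL40; ENSMUSG00000022706.16, chromosome 16, 18872018 to 18876862) was at 8.34, 6.86 and 8.79 CPM at 0 h and 11.5, 14.0 and 12.0 CPM at 48 h, with no overlap and a log2 fold change of 0.65 (SE 0.15, adjusted p = 0.00536, edgeR). Mrpl42 (mL42; ENSMUSG00000062981.5, chromosome 10, 95480805 to 95501940) was at 32.5, 19.1 and 30.03 CPM at 0 h and 39.3, 50.3 and 37.1 CPM at 48 h. Its lowest undamaged and its highest 48 h value both came from replicate 2, and the log2 fold change was 0.64 (SE 0.19, adjusted p = 0.022, edgeR). Mrpl51 (mL51; ENSMUSG00000030335.6, chromosome 6, 125191801 to 125196269) was at 18.1, 13.4 and 17.6 CPM at 0 h and at an even 23.7, 24.9 and 23.1 CPM at 48 h. Its log2 fold change was 0.54 (SE 0.13, adjusted p = 0.00779, edgeR). All 3 of these proteins are specific to the mitochondrial ribosome, with no counterpart in the bacterial one.

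Mrpl12 (bL12m; ENSMUSG00000039640.7, chromosome 11, 120484613 to 120489065) encodes the protein of the flexible stalk that recruits translation factors, and it has also been reported to bind the mitochondrial RNA polymerase. It was at 35.4, 26.0 and 34.5 CPM at 0 h and 39.7, 59.9 and 37.5 CPM at 48 h. A single 48 h library held most of the rise, and the groups were close otherwise. The log2 fold change of 0.52 (SE 0.19, adjusted p = 0.0463, edgeR) was 0.38 without 0 h replicate 2 and was then not called (adjusted p = 0.146). Without 48 h replicate 2 it was 0.28 (adjusted p = 0.194, edgeR). Mrpl50 (mL50; chromosome 4, 49512596 to 49521093) was at 25.2, 19.6 and 29.5 CPM at 0 h and 35.5, 37.3 and 33.4 CPM at 48 h (log2 fold change 0.52, SE 0.14, adjusted p = 0.0155, edgeR). Mrpl52 (mL52; chromosome 14, 54426909 to 54429756) was at 18.4, 12.8 and 17.3 CPM at 0 h and 22.5, 24.9 and 18.8 CPM at 48 h (log2 fold change 0.45, SE 0.16, adjusted p = 0.0453, edgeR). Neither of the last 2 genes overlapped between the time points, although the lowest 48 h value of Mrpl52 stood just above its highest undamaged one. The value of Mrpl52 was 0.29 without 0 h replicate 2 and was not called (adjusted p = 0.114, edgeR).

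The 2 members that fell were 1 from each subunit. Mrps35 (mS35; ENSMUSG00000040112.9, chromosome 6, 147042764 to 147073991), a protein specific to mitochondria in the small subunit, was at 17.9, 14.6 and 15.7 CPM at 0 h and 11.2, 14.0 and 11.4 CPM at 48 h. The groups did not overlap, by a narrow margin in replicate 2 of each. Its log2 fold change was -0.40 (SE 0.14, adjusted p = 0.0402, edgeR) and was -0.47 without 0 h replicate 2. With library size only it was -0.19 (adjusted p = 0.311, edgeR), and its call was also lost with the replicate block and in 4 of the 6 fits that left out 1 library. Mrpl3 (uL3m; ENSMUSG00000032563.16, chromosome 9, 105053239 to 105079888), whose bacterial relative L3 lies near the site of peptide bond formation, was at 14.0, 15.2 and 14.6 CPM at 0 h and 11.05, 12.2 and 11.6 CPM at 48 h. These libraries were even within each time point and did not overlap. The log2 fold change was -0.33 (SE 0.12, adjusted p = 0.0415, edgeR), but it was not called without 0 h replicate 2 (-0.31, adjusted p = 0.0612), nor without any other single library, and was -0.13 with library size only (adjusted p = 0.442, edgeR).

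**Figure D3:**
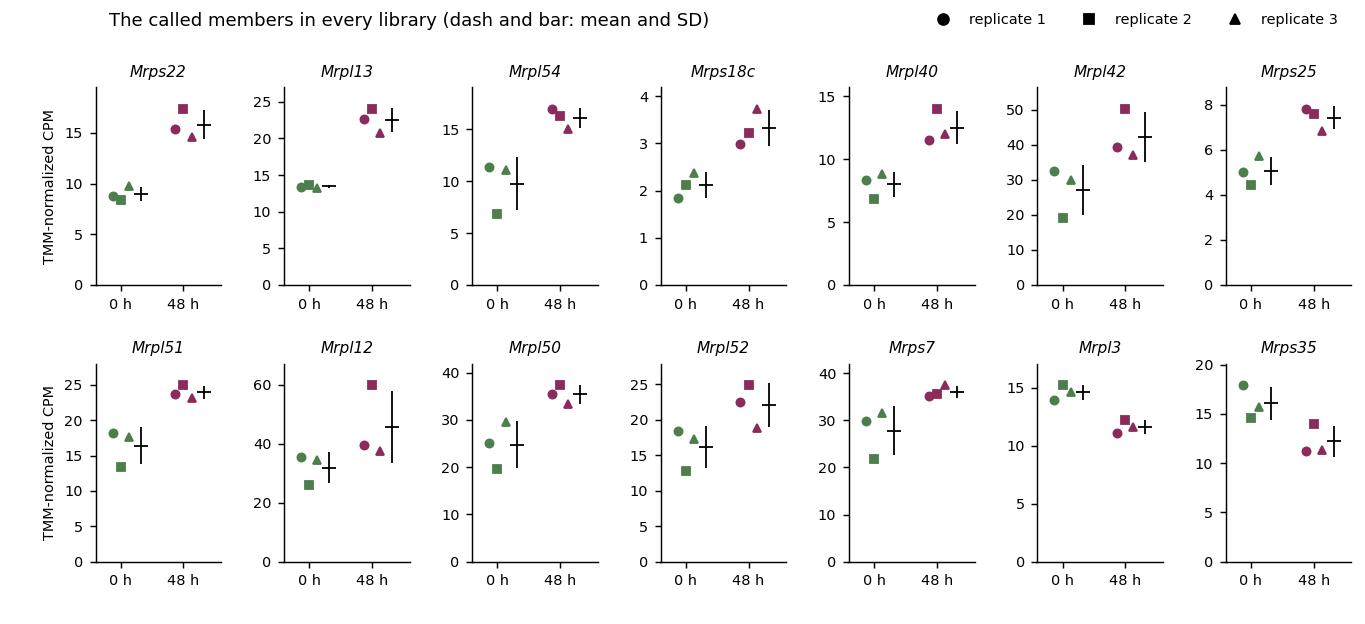
TMM-normalized CPM of the 14 called members in each of the 6 libraries (0 h at the left, 48 h at the right, symbols for replicates, dash and bar for mean and SD, n = 3), each on an axis that starts at 0. In 12 genes the 48 h libraries lie above the 0 h libraries and in Mrpl3 and Mrps35 below them, and the square of 0 h replicate 2 is often the lowest.

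The calls differed in how far they held across 19 other settings of the test, normalization, filter and samples. Mrps22, Mrpl13, Mrpl40, Mrpl51 and Mrpl54 were called in all 19, with adjusted p-values of at most 0.0318 across DESeq2, edgeR and limma fits. Mrpl42, Mrpl50 and Mrps25 were called in 17 and Mrps18c in 15. Mrps35 was called in 12, Mrpl52 in 11, and Mrpl12, Mrps7 and Mrpl3 in 9 each. When 1 library at a time was left out, Mrpl42 and Mrpl50 lost the call without 48 h replicate 2, Mrps25 without 48 h replicate 1 or 2, and Mrps18c without 0 h replicate 1 or 48 h replicate 2 or 3. Mrps35, Mrpl52 and Mrpl12 were each called in 2 of these 6 fits, Mrps7 in 1 and Mrpl3 in 0.

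Several members with well-known roles did not pass the test. Mrpl33 (bL33m), a small protein next to the exit site for transfer RNA, had the most negative value of all, with 6.91, 7.35 and 6.23 CPM at 0 h and 4.28, 4.81 and 6.23 CPM at 48 h. The highest 48 h library stood only just below the lowest undamaged one, and the log2 fold change of -0.42 (SE 0.18) had an adjusted p of 0.0828 (edgeR), which was 0.03 without 48 h replicate 3. Mrps34 (mS34) was at 4.39, 2.87 and 4.13 CPM at 0 h and 3.36, 3.24 and 2.34 CPM at 48 h, with groups that overlapped (log2 fold change -0.35, or -0.52 to -0.19 when 1 library was left out). Its counts are uncertain, because exons of Mapk8ip3 and Nme3 overlap 37.0% of its exon bases on the same strand and 63.4% on the other. Mrps5 (uS5m), whose bacterial relative S5 bears on the accuracy of decoding, was at 27.5, 22.1 and 29.9 CPM at 0 h and 23.3, 22.0 and 21.8 CPM at 48 h, also with overlap (log2 fold change -0.24, adjusted p = 0.149, edgeR). Without 0 h replicate 2, Mrps5 was called lower (log2 fold change -0.37, adjusted p = 0.0152, edgeR), and without 0 h replicate 3 it was at -0.16.

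Mrps12 (uS12m), the relative of the decoding protein S12, was at 26.6, 17.3 and 27.3 CPM at 0 h and 23.0, 23.6 and 21.7 CPM at 48 h. The 48 h libraries lay inside the range of the undamaged ones, and the fitted change of -0.06 turned to 0.14 with library size only and to 0.04 with an exon length correction, and lay between -0.25 and 0.04 in the fits without 1 library. Mrpl44 (mL44), a protein of the ribonuclease III family, was at 11.4, 7.22 and 9.005 CPM at 0 h and 9.26, 7.27 and 7.68 CPM at 48 h, with overlap and a change of -0.19 that became 0.01 with library size only and lay between -0.34 and -0.02 in the fits without 1 library. Mrpl58 (mL62), the enzyme that frees the peptide from stalled mitochondrial ribosomes, was at 12.2, 9.18 and 11.8 CPM at 0 h and 12.6, 13.2 and 12.97 CPM at 48 h. Its 48 h libraries were just above the undamaged ones, with a log2 fold change of 0.23 (SE 0.14, adjusted p = 0.219, edgeR). It was 0.0997 without 0 h replicate 2 and 0.43 with library size only, where it was called (adjusted p = 0.0286, edgeR).

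Gene names do not always tell the place of the protein. Mrps30 (mL65) and Mrps18a (mL66) carry small subunit names, but their proteins sit in the large subunit. Mrps30 was at 11.3, 11.1 and 13.1 CPM at 0 h and 13.7, 16.0 and 14.5 CPM at 48 h, without overlap but short of the threshold (log2 fold change 0.32, SE 0.13, adjusted p = 0.0668, edgeR). It was called with library size only (0.52, adjusted p = 0.00835, edgeR). Mrps18a was at 17.6, 11.6 and 16.4 CPM at 0 h and 13.5, 13.3 and 13.9 CPM at 48 h, so that 1 undamaged library was below and 2 were above the 48 h values. Its change of -0.16 was not called with all libraries, was called lower without 0 h replicate 2 (-0.33, adjusted p = 0.0363, edgeR), was -0.05 without 0 h replicate 1 and became 0.04 with library size only.

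The 3 relatives of bacterial S18 took different values, Mrps18c at 0.65, Mrps18a at -0.16 and Mrps18b (mS40) at -0.12, with Mrps18b at 21.9, 16.98 and 19.5 CPM at 0 h and 19.95, 18.7 and 15.1 CPM at 48 h. Of these, Mrps18b overlapped between the time points and became 0.08 with library size only, and it lay between -0.22 and -0.001 in the fits without 1 library. Mrps36 belongs to neither subunit, since its product is now placed in the 2-oxoglutarate dehydrogenase complex of the citric acid cycle. It was at 5.28, 3.48 and 5.66 CPM at 0 h and 6.65, 8.502 and 5.45 CPM at 48 h. The groups overlapped, and its log2 fold change of 0.51 (SE 0.22, adjusted p = 0.0924, edgeR) did not pass. It was 0.32 without 0 h replicate 2, and was called without 48 h replicate 3 (0.66, adjusted p = 0.0442, edgeR) and with library size only (0.72, adjusted p = 0.0223, edgeR).

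By subunit, 8 of the 50 large subunit members tested rose and 1 fell (median log2 fold change 0.16), and 4 of the 26 small subunit members rose and 1 fell (median 0.19). By origin, 8 of the 30 tested members specific to mitochondria rose and 1 fell (median 0.21), and 4 of the 46 with a bacterial relative rose and 1 fell (median 0.06). Mrps18a and Mrps18b, whose standard names are those of mitochondrial proteins, count among the former although they are relatives of S18. With these 2 moved, a split added after the values were seen, 8 of 28 rose (median 0.25) against 4 of 48 (median 0.05), and 1 fell in each. The mitochondria-specific proteins of the large subunit had 6 of 20 higher and 0 lower (median 0.26), against 2 higher and 1 lower of 30 large subunit proteins with a bacterial relative (median 0.06). No test was made of the difference between these groups, and they stand beside 21.4% higher, 19.3% lower and a median of 0.00 for all genes tested.

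Compared per kilobase of annotated exon, the members' levels spanned a wide range, from 0.815 to 31.9 CPM per kilobase over the 6 libraries, with a median of 4.85 and quartiles of 2.35 and 9.98. Mrpl34 (bL34m), a short protein of the large subunit, was the highest by this length, at 31.5 ± 8.15 CPM per kilobase in undamaged liver and 32.3 ± 1.25 after PHx (SD, n = 3 each). Its CPM were 22.0, 13.4 and 22.0 at 0 h and 19.9, 20.2 and 18.8 at 48 h, so the groups overlapped and the log2 fold change was 0.04, or between -0.04 and 0.24 with other scalings, the highest with library size only, and -0.17 to 0.14 when 1 library was left out. The proteins of the stalk and its base came next over the 6 libraries together. Mrpl12 was at 20.9 ± 3.39 (SD, n = 3) and 29.8 ± 8.05 (SD, n = 3) CPM per kilobase. Mrpl10 (uL10m), which anchors the Mrpl12 stalk, was at 20.3 ± 4.89 (SD, n = 3) and 24.7 ± 1.35 (SD, n = 3). At 0 h alone, Mrps12 (22.8) and Mrpl38 (21.2) had higher means than both, by less than the SD. The order also depends on the length used. With the longest annotated transcript, Mrpl38 (mL38) was the highest at 37.95 CPM per kilobase over the 6 libraries, followed by Mrpl34 at 31.9, Mrpl12 at 29.5, Mrpl14 at 27.1, Mrps12 at 26.3 and Mrpl10 at 22.5.

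In CPM, Mrpl10 was at 39.1, 25.01 and 39.8 at 0 h and 41.9, 44.5 and 39.9 at 48 h, with the groups barely apart and a log2 fold change of 0.28 (SE 0.16, adjusted p = 0.194, edgeR). The change of Mrpl10 was 0.0847 without 0 h replicate 2 and 0.49 with library size only, where it was called (adjusted p = 0.0282, edgeR). The lowest levels per kilobase of exon among the members tested were in Mrpl33 (0.932 ± 0.0766 at 0 h and 0.697 ± 0.138 at 48 h, SD, n = 3) and Mrps25 (0.771 ± 0.097 and 1.13 ± 0.0783). Both genes have several kilobases of annotated exon, and with the longest annotated transcript as the length the median over members was 6.06 CPM per kilobase. By that length Mrps25 was the lowest, at 1.03, and Mrpl33, at 2.18, was above Mrpl47 (1.38) and Mrpl23 (1.41). Levels of the 2 genes with the strongest rise were modest, with Mrps22 at 2.25 ± 0.18 (SD, n = 3) CPM per kilobase at 0 h and Mrpl13 at 1.69 ± 0.0262 (SD, n = 3), both under the median.

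**Figure D4:**
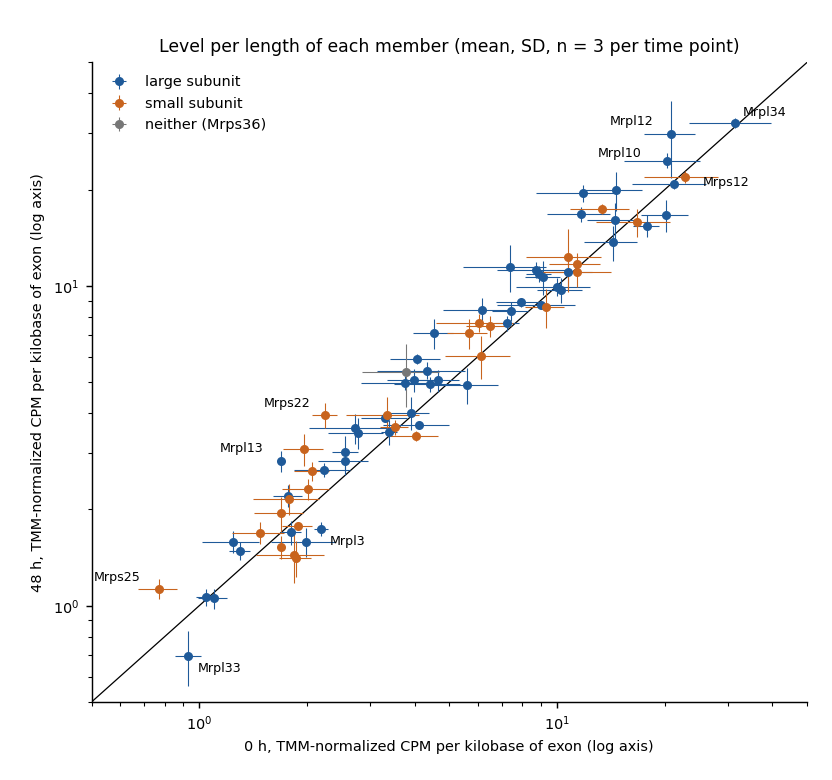
Mean TMM-normalized CPM per kilobase of exon of each tested member at 0 h (x) and 48 h (y), both log axes, with SD bars (n = 3 per time point) and the line of equal levels. Members lie along that line from Mrpl33, with a mean of 0.815 over all libraries, to Mrpl34, with 31.9, and Mrps22, Mrpl13 and Mrps25 stand visibly above it.

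Summed over all members, the level was 1126 ± 175 CPM in undamaged liver and 1262 ± 87.2 CPM after PHx (SD, n = 3 each), a difference smaller than the spread of the undamaged libraries. As a share of all gene counts, without TMM factors, the members made up 0.105% ± 0.0148 of the undamaged libraries and 0.135% ± 0.0106 of the 48 h ones (SD, n = 3 each). The large subunit members summed to 767 ± 117 and 883 ± 64.7 CPM and the small subunit members to 354 ± 56.5 and 372 ± 24.98 CPM (SD, n = 3 each).

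The cytosolic ribosomal proteins, which build the other ribosome of the cell, moved more. Of the 82 tested, 53 rose and 0 fell (64.6% higher; 21.4% of all genes), with a median log2 fold change of 0.54. The largest called changes were in Rps19 (0.89), Rpsa (0.89), Rpl41 (0.88) and Rpl12 (0.87), and each of these had all 48 h libraries above all undamaged ones. Rps19, for example, was at 37.5, 31.9 and 34.5 CPM at 0 h and 65.4, 70.5 and 56.6 CPM at 48 h. Without 0 h replicate 2, 42 cytosolic ribosomal protein genes were higher and 1 lower (20.4% and 19.0% of all genes in that fit). Their median was then 0.38, beside 0.06 for the mitochondrial ones. Without 48 h replicate 2, 30 were higher and 0 lower (16.1% and 15.4% of all genes). The nuclear subunits of oxidative phosphorylation, the chain that holds the products of the mitochondrial ribosome, had 4 of 79 higher and 6 lower (21.4% and 19.3% of all genes), with a median of -0.04 (3 higher, 16 lower and a median of -0.16 without 0 h replicate 2, where 20.4% of all genes were higher and 19.0% lower). Scaled by library size only, 15 were higher and 1 lower (31.2% and 12.4% of all genes). Cox6b2, an isoform of a cytochrome c oxidase subunit, rose by 3.35 from 0.0681, 0.193 and 0.211 CPM to 1.16, 2.24 and 1.599 CPM, a low level throughout. Its undamaged libraries held 2, 6 and 7 counts, so that it passed the count filter only through the 48 h libraries, and its fold and p rest on that. Ndufa8 of complex I rose (log2 fold change 0.67), while its partners Ndufs7 (-0.60) and Ndufa6 (-0.56) fell, the latter not called with library size only (-0.35, adjusted p = 0.0638, edgeR).

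The 5 mitochondrial ribosome proteins that carry other names had 0 genes called by edgeR's quasi-likelihood test (40.7% of all genes were), although their fitted changes were all above 0 (median 0.14). Under library size only, 3 of them (Ptcd3, Chchd1 and Dap3) were called higher, where 31.2% of all genes were, and at most 1 was in any other setting. Ptcd3 (mS39), which guides messenger RNA to the ribosome, was at 29.0, 31.6 and 31.3 CPM at 0 h and 36.4, 41.0 and 33.4 CPM at 48 h (log2 fold change 0.27, adjusted p = 0.0723, edgeR). Its libraries did not overlap, and it was called without 48 h replicate 3 (0.34, adjusted p = 0.0492, edgeR). Chchd1 (mS37) had 0.34 (adjusted p = 0.0822, edgeR), and Dap3 (mS29), the GTP-binding protein of the small subunit, 0.14, or 0.03 without 0 h replicate 2. Gadd45gip1 (mL64), at 0.14, and Aurkaip1 (mS38), at 0.07, lay between -0.01 and 0.40 and between -0.12 and 0.17 in the fits without 1 library.

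The 27 factors that assemble the mitochondrial ribosome had 2 genes higher and 4 lower (median -0.06), against 21.4% and 19.3% of all genes. The directions depended on the setting. With library size only, 7 were higher and 0 lower (31.2% and 12.4% of all genes), and with the replicate block 2 and 0 (19.0% and 16.9%). Mettl15, a methyltransferase for the small ribosomal RNA, rose by 0.74 on the log2 scale, from 3.47, 1.97 and 2.29 CPM to 4.60, 4.78 and 3.46 CPM, where the lowest 48 h library was just under the highest undamaged one. Ddx28, a helicase of large subunit assembly, rose by 0.50, from 10.2, 9.44 and 9.82 CPM to 16.8, 12.4 and 12.6 CPM, without overlap. Rbfa, a maturation factor of the small subunit, fell by 0.56, from 4.39, 3.61 and 4.28 CPM to 2.49, 2.71 and 3.14 CPM. Ngrn, needed for the large ribosomal RNA, fell by 0.50. In edgeR's test, adjusted p was 0.0346, 0.019, 0.0359 and 0.0419 in that order. Without 0 h replicate 2, Mettl15 (0.57, adjusted p = 0.102, edgeR) and Ngrn (-0.52, adjusted p = 0.0589, edgeR) were not called. Of the 6 fits that left out 1 library, Ddx28 was called in 4, Mettl15 and Rbfa in 2 each and Ngrn in 1. With library size only, Rbfa (-0.35, adjusted p = 0.178, edgeR) and Ngrn (-0.30, adjusted p = 0.176, edgeR) were not called. Eral1 and Tfb1m, which bind and methylate the small ribosomal RNA, had 0.18 and 0.35 and were not called, and had 0.0983 and 0.21 without 0 h replicate 2. Both were called with library size only (0.39 and 0.55).

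Of 14 translation factors tested (16 listed), 0 rose and 1 fell by edgeR's test (21.4% and 19.3% of all genes), with a median of -0.04. The gene that fell was Gfm2, a factor that recycles the ribosome after termination, from 50.5, 46.4 and 48.4 CPM to 39.6, 39.7 and 41.0 CPM (log2 fold change -0.27, adjusted p = 0.0377, edgeR), and it was called in 1 of the 6 fits that left out 1 library. Its change was -0.07 with library size only (adjusted p = 0.605, edgeR). With that scaling, 6 translation factors were higher and 0 lower (31.2% and 12.4% of all genes). Without 0 h replicate 2, 1 was higher and 3 were lower (20.4% and 19.0% of all genes). The elongation factor Tufm had 0.19, with 0.05 without 0 h replicate 2 and a called 0.39 with library size only (adjusted p = 0.0248, edgeR). The initiation factor Mtif2 had -0.08 and the messenger RNA stabilizer Lrpprc -0.17, and these 2 uncalled genes had 0.12 and 0.04 with library size only. Among the 20 mitochondrial tRNA synthetases, 5 rose and 3 fell (median -0.06), shares of 25.0% and 15.0% beside 21.4% and 19.3% of all genes. Mars2, for methionine, had the largest rise, from 3.13, 3.54 and 3.64 CPM to 8.11, 5.73 and 7.20 CPM (log2 fold change 1.03, SE 0.18, adjusted p = 0.00119, edgeR). Pars2, for proline, rose by 0.84, and Nars2, for asparagine, fell by 0.76.

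Genes for mitochondrial transcription and genome upkeep had 3 of 13 higher and 2 lower (median -0.12), where all genes had 21.4% and 19.3%. Mgme1, an exonuclease of mitochondrial DNA, rose by 1.27, from 5.07, 4.48 and 4.85 CPM to 13.2, 11.6 and 10.1 CPM (adjusted p = 0.000103, edgeR). Tfam, which packages mitochondrial DNA and starts its transcription, rose by 0.50, and Dna2, a nuclease that also serves the nucleus, by 0.69. Polrmt, the mitochondrial RNA polymerase, fell by 0.30, and Top1mt, its topoisomerase, by 0.38, and each of these falls was called in 2 of the 6 fits that left out 1 library. Polrmt was at -0.10 (adjusted p = 0.488, edgeR) and Top1mt at -0.18 (adjusted p = 0.261, edgeR) with library size only. Of 37 mitochondrially encoded genes, 15 passed the filter, with 2 higher (mt-Nd1 at 0.61 and mt-Nd6 at 0.81) and 2 lower (mt-Nd4 at -0.58 and mt-Cytb at -0.52). Those 4 encode respiratory chain subunits, and mt-Nd6 lies on the strand opposite to the others. Their calls were unsteady. With the replicate block, 4 mitochondrially encoded genes were higher and 0 lower (19.0% and 16.9% of all genes). The change of mt-Nd1 was 0.58 and not called without 0 h replicate 2 (adjusted p = 0.0596, edgeR), that of mt-Nd6 was 0.52 without 0 h replicate 1 (adjusted p = 0.109, edgeR), and of the 6 fits that left out 1 library mt-Nd1 was called in 3, mt-Nd6 in 2 and mt-Nd4 and mt-Cytb in 1 each. With library size only, mt-Nd4 (-0.38, adjusted p = 0.162, edgeR) and mt-Cytb (-0.32, adjusted p = 0.176, edgeR) were not called.

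The 12 regulators of nuclear genes for mitochondria had 1 gene higher and 3 lower (median 0.08), against 21.4% and 19.3% of all genes. Pprc1, a coactivator of the PGC-1 family, rose by 1.22, from 29.2, 46.8 and 27.8 CPM to 84.5, 74.1 and 83.1 CPM (adjusted p = 0.000437, edgeR). Its relative Ppargc1b fell by 0.83 and Foxo3 by 0.76, while Ppargc1a had 0.15, with overlapping groups, and -0.13 to 0.29 when 1 library was left out. Gabpa, the ETS factor named with the promoters above, fell by 0.31, from 43.5, 39.7 and 44.7 CPM to 30.3, 37.6 and 35.4 CPM (adjusted p = 0.0472, edgeR), and was called in 2 of the 6 fits that left out 1 library. Scaled by library size only, Gabpa was at -0.102 and not called (adjusted p = 0.538, edgeR). Nrf1 was not called (0.20, or 0.0921 to 0.33 when 1 library was left out), although with library size only it was (0.40, adjusted p = 0.0432, edgeR). Myc ranged from 6.35 to 35.6 CPM among the undamaged libraries and from 25.7 to 48.5 CPM at 48 h, and its change of 0.75 (SE 0.46) had an adjusted p of 0.223 (edgeR). The change of Myc was 0.31 without 0 h replicate 2 and 1.40 without 0 h replicate 1, where it was called (adjusted p = 0.0315, edgeR).

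Many members start next to another gene that is read in the opposite direction. Within 1000 bases upstream on the other strand, 20 members had such a neighbour, 18 of them protein-coding. Of the 20 neighbours, 4 rose and 4 fell, and of the 20 members in these pairs 5 rose and 0 fell, while 21.4% of all genes rose and 19.3% fell. Both genes rose in 2 pairs, and in 1 pair the calls were opposite. In 5 pairs the neighbour was called and the member was not.

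The closest called pair was Mrpl54 and Apba3, 26 bases apart, where Mrpl54 rose by 0.72 and Apba3 fell by 0.50, from 27.9, 21.7 and 26.3 CPM to 19.1, 16.8 and 18.0 CPM (adjusted p = 0.00903, edgeR). Neither gene overlapped between the time points. With library size only, which shifts both genes alike, they were at 0.93 and -0.29, and Apba3 was not called (adjusted p = 0.068, edgeR). Mrps18c and Helq, a DNA repair helicase 29 bases away, both rose, by 0.65 and 0.78. Mrps18b had -0.12 while Ppp1r10, a regulatory subunit of a protein phosphatase 45 bases away, fell by 0.76. Mrps12 had -0.06 beside 0.38 in Sars2, the mitochondrial synthetase for serine, 172 bases away, which was called higher (adjusted p = 0.0465, edgeR). Sars2 was at 0.26 without 0 h replicate 2 (adjusted p = 0.102, edgeR) and was called in 0 of the 6 fits that left out 1 library. The 2 other close pairs, Mrps34 with Eme2 and Mrps21 with C920021L13Rik, had no called gene, and neither did Mrpl49 with Fau, whose product carries a cytosolic ribosomal protein. In the fits without 1 library, Eme2 (-0.27) lay between -0.40 and -0.11, Fau (0.26) between 0.07 and 0.42 and C920021L13Rik (-0.48) between -0.75 and -0.13.

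The widest differences within a pair, chosen for naming after their values were seen, were with 2 genes of cell division. Ska3, a protein of the spindle attachment complex, starts 49 bases from Mrpl57 and rose by 4.92, from 0.306, 0.226 and 0.271 CPM to 8.85, 8.56 and 7.14 CPM (adjusted p = 1.39e-07, edgeR). The undamaged libraries held 9, 7 and 9 counts of Ska3, so that it passed the count filter only through the 48 h libraries, and its fold and p rest on that. Mrpl57 (mL63) was at 12.7, 12.5 and 16.0 CPM and 15.6, 15.7 and 13.6 CPM, with overlapping groups and a change of 0.12. Ncapd2, a condensin subunit, starts 100 bases from Mrpl51 and rose by 3.97, from 4.83, 4.99 and 4.64 CPM to 74.9, 87.7 and 64.1 CPM (adjusted p = 3.44e-08, edgeR), while Mrpl51 rose by 0.54.

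**Figure D5:**
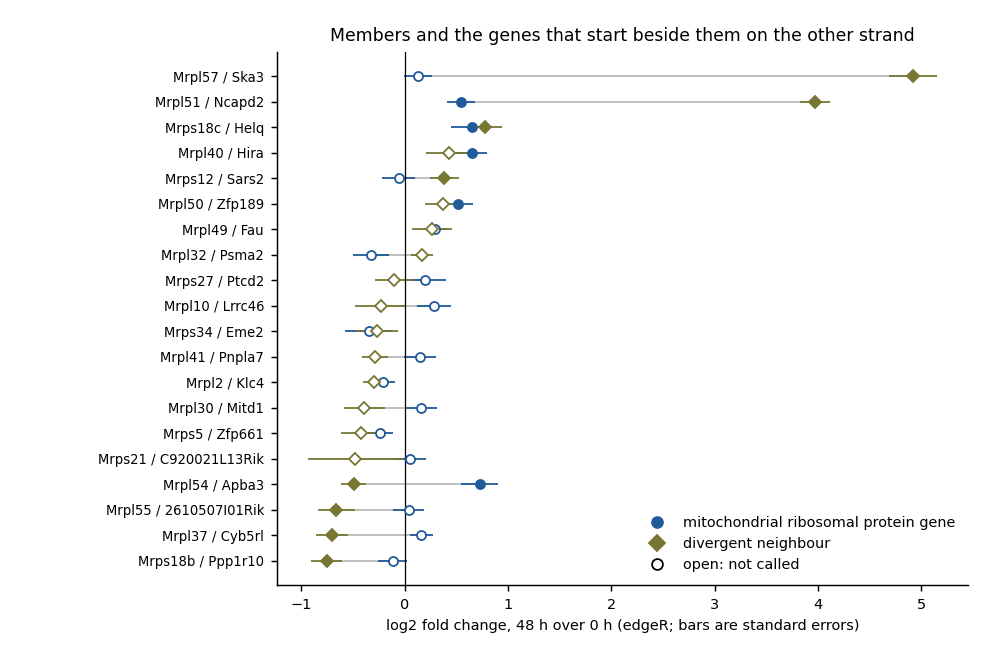
Log2 fold changes (48 h over 0 h, bars are standard errors from edgeR) of the 20 members with a divergent neighbour (circles) and of that neighbour (diamonds), filled where called. The circles lie between -0.35 and 0.72, while the diamonds run from -0.76 to 4.92, with Ska3 and Ncapd2 far to the right.

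Some members are hard to count. Mrpl53 (mL53; chromosome 6, 83109040 to 83109939) had 0 counts in all 6 libraries and was the 1 member not tested. Genes annotated on the same strand cover 88.0% of its exon bases, and reads that fall on more than 1 gene were set aside as ambiguous in the deposited files (4.27% to 5.29% of the reads). Exons of 33 members overlap those of another gene, 10 of them over more than 20% of their exon bases. Without these 33, 6 of 45 members were higher (13.3%; 21.4% of all genes tested) and 1 lower (19.3% of all genes), with a median of 0.16. Near-identical annotated copies (at least 95% identity over at least 100 bases) exist for 27 members, and in 10 they span at least 25% of the longest transcript, Mrps25 among the called genes. Pseudogenes named after a member had at most 4 counts in any library. Other copies carry other names, such as Gm42933 for Mrps25, and their counts are not given here.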

How the data were processed

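The authors deposited raw counts of reads per gene for each library, without normalization, in the layout of htseq-count. The submitters' processing notes name FastQC 0.11.5, Trim Galore 0.6.4, STAR 2.6, HTSeq 0.12.4, DESeq2 and the build mm10, while the counting mode and strand setting are not given in the sources used here. Lines that name no gene held 24.3% to 32.7% (no feature) and 4.27% to 5.29% (ambiguous) of the reads and were left out of library sizes. Versioned Ensembl IDs were matched to GENCODE M21. Groups and replicate numbers came from the sample titles, and p-values measure the spread between these 6 samples. Pairs of libraries of a time point differed by more than counting noise.

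A gene was tested when 3 or more libraries held 10 counts of it (17037 genes). The test was the quasi-likelihood test of edgeR 4.0.16 (R 4.3.3) with TMM factors and time as the only term, followed by Benjamini-Hochberg adjustment over all genes tested, and an adjusted p under 0.05 was called. CPM are TMM-normalized unless said otherwise. The members and lists were chosen with earlier results of these data known. Subunits, origins and related lists are from general knowledge. Genes were named by rule: the 8 largest called rises and all called falls among the members, the 3 highest and 3 lowest per kilobase, a list of members with known roles, up to 4 called genes and some regulators per related list, and the 5 closest or listed divergent neighbours. Mrpl50, Mrpl52, Mrps7, Mrpl38, Mrpl14, Mrpl47, Mrpl23, Mrpl57, Ska3 and Ncapd2 were named after their values were seen. Some genes that the rule covers are not reported here. Copies were sought with blastn 2.17.0. On simulated counts for this comparison (10 simulations, a mean of 17002 genes tested), edgeR's test recovered 65.9% of genes changed 2-fold and 97.4% of those changed 4-fold, and 7.31% of its calls were unchanged genes. Only a small share of the genes was changed in them, whereas 40.7% were called here, and these rates depend on that share. The planted changes were also larger than that of any member, so the rates do not apply to the members' changes. Alternatives were DESeq2 1.42.0, limma-voom 3.58.1, other scalings and filters, length and GC corrections, a replicate block, other member lists and leaving out each library.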

Additional observations from a re-analysis of the deposited data

How the results depend on the processing

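Tested members held 54 to 2142 counts in a library, the lowest in Mrps18c. Leaving out 1 library at a time gave 5 to 11 members higher and 0 to 5 lower, with the 5 higher from leaving out 48 h replicate 2 and the 5 lower from leaving out 0 h replicate 2. These fits called 31.5% to 39.3% of all genes in either direction (40.7% with all libraries). The same fits called 0 to 1 of the mitoribosome proteins with other names, 0 to 6 assembly factors, 0 to 4 translation factors, 3 to 5 genes of mitochondrial transcription and genome maintenance, 0 to 4 mitochondrially encoded genes, 6 to 19 nuclear OXPHOS subunits and 30 to 62 cytosolic ribosomal proteins. The 4 translation factors and 19 OXPHOS subunits came from leaving out 0 h replicate 2, the 0 assembly factors from 0 h replicate 3, the 6 OXPHOS subunits from 0 h replicate 1 and the 30 cytosolic proteins from 48 h replicate 2. The cause was not tested. With library size only, 34 members were higher and 0 lower, 2110 of all genes were lower (43.5% were called in either direction), and 3 proteins with other names, 6 translation factors, 2 mitochondrially encoded genes and 16 OXPHOS subunits were called. The median of the members was then 0.39 and the log2 ratio of their summed level 0.37, as that scaling shifts all genes by 0.20. Upper quartile factors and TMM on protein-coding genes each called 16 OXPHOS subunits (41.5% and 41.4% of all genes). Without a count filter, which called 23.9% of all genes, 1 member was lower and 0 translation factors were called. A minimum absolute log2 fold change of 0.5, which 33.8% of all genes passed with a call, left 0 members lower, 3 assembly factors, 0 translation factors, 2 transcription and maintenance genes and 6 OXPHOS subunits. An exon length correction, with 41.1% of all genes called, called 1 protein with another name and 2 mitochondrially encoded genes. Leaving out members that overlap other genes left 6 higher and 1 lower. With the longest transcript as length, the median level was 6.06 CPM per kilobase.

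Around their group means, libraries with the same number correlated at 0.036, -0.093 and -0.166. These values cannot show whether libraries with the same number shared a preparation, which the labels do not state. With the replicate block, 10 members were higher and 0 lower (19.0% and 16.9% of all genes), and 2 assembly factors, 0 translation factors and 3 transcription and maintenance genes were called; the block with the GC correction gave the same 5 counts. Not every library correlated best with its own number.

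Changes of sign were confined, among the named genes, to log2 fold changes near 0 that were not called. Mrpl34 was at -0.0411 with upper quartile factors and -0.0118 with TMM on protein-coding genes, and between -0.174 and 0.139 when 1 library was left out. With library size only, Mrps18a was at 0.0421, Mrps18b at 0.0814, Mrps12 at 0.144, Mrpl44 at 0.0106, Mtif2 at 0.117 and Lrpprc at 0.0353. Mrps12 was also at 0.038 with the exon length correction and 0.0126 with the block and GC correction, and Aurkaip1 at -0.0115 with upper quartile factors. Leaving out 1 library gave -0.254 to 0.0441 for Mrps12, -0.123 to 0.168 for Aurkaip1, -0.0148 to 0.399 for Gadd45gip1 and -0.127 to 0.286 for Ppargc1a. Of the other values of named genes under alternatives, 1275 stayed on the same side of 0 and of the threshold, 157 lost the call and 20 gained it.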
